A study of Mus musculus with 6 samples.

Results

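The 10 genes of neutrophils and their progenitors followed here in cultured mouse megakaryocytes were Mpo, Elane, Prtn3, Ctsg, Cebpa, Cebpe, Ms4a3, Mgst1, Ltf and Ngp. They were chosen by name, and each was represented by every probe set, the group of array oligonucleotides for 1 transcript, that the platform annotation assigns to that gene alone. This gave 10 probe sets for 9 of the 10 genes, out of 45101 probe sets on the array. Cebpe was not analysed here. All 9 genes were among the 11284 genes tested after the dimmer 50% of probe sets had been left out, and the second Mgst1 probe set was not.

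The cells were megakaryocytes, the large cells that shed platelets, grown from fetal liver with thrombopoietin and enriched on an albumin gradient. There were 3 arrays of the genotype labelled FOG1-/- ki/ki, called FOG1 ki/ki here, and 3 control arrays, of which replicates 1 and 2 were FOG1+/- and replicate 3 was FOG1+/+. All cultures shared a mixed C57BL/6xSv129 background, and the labels give no age and do not say how many fetuses went into a culture. FOG1 is the product of Zfpm1 and works as a partner protein of GATA transcription factors. The labels do not describe the knocked-in change. From what is known of the mouse line, it is a change that keeps FOG1 from binding the repressor complex NuRD, and the alleles are carried in all cells rather than driven by a Cre or a lineage promoter. The comparison asks whether transcripts of another myeloid lineage differ in megakaryocytes that carry only this FOG1.

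Neutrophils arise from granulocyte-monocyte progenitors under the control of C/EBP factors. At the promyelocyte stage the cells fill azurophil granules with myeloperoxidase and serine proteases, and later, as myelocytes, they fill specific granules with lactoferrin and other antimicrobial proteins. Transcripts of both granule types are among the most abundant of their stage, so they serve as markers of granulocytic cells in a haematopoietic culture.

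The values were MAS5 signals, which are array brightness on a linear scale after each array was scaled to one target by the authors. Differences were taken on log2(signal + 16), where the 16 damps noise near background and makes the change of dim genes look smaller. The median signal of an array ranged from 5.93 to 12.3. The megakaryocyte marker Itga2b was bright on every array, at 1907, 1947 and 3309 in FOG1 ki/ki replicates 1 to 3. It read 1843, 2678 and 2867 in control replicates 1 to 3, and further markers are given below. Zfpm1 averaged 874 ± 397 in FOG1 ki/ki and 810 ± 357 in control (SD, n = 3 each), which does not check the genotypes, since the knocked-in allele can be transcribed. Both replicate 3 columns were deposited with more decimals than the other 4, whose values had at most 1 decimal. The labels describe biological replicates without naming a shared litter or day, so p-values measure the spread between these cultures.

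The granule genes differed far more between replicate numbers than between genotypes. Mpo, Elane, Prtn3, Ctsg, Ltf and Ngp were high on the arrays of replicates 1 and 2 and low on both replicate 3 arrays, FOG1 ki/ki and control alike. Of the other 3 genes, Cebpa was lower in FOG1 ki/ki than in control on all arrays, Mgst1 was lower within all 3 pairs of equal replicate number, and Ms4a3 stayed high in FOG1 ki/ki replicate 3. None of the 9 genes passed limma's test for FOG1 ki/ki against control, with adjusted p from 0.433 for Cebpa to 0.999. Before adjustment, p lay under 0.05 for 1 of them, Cebpa, and for 754 of the 11284 genes. Over the whole array 0.0975% of genes were called higher and 0.0532% lower, so a count of 0 among 9 is near that background. With the replicate number as a block, which compares within equal numbers, 0 of the 9 passed again (adjusted p from 0.0757 to 0.954), against 0.425% of all genes called higher and 0.434% lower. In that fit p before adjustment lay under 0.05 for Cebpa and Mgst1, 2 of the 9, and for 2081 of the 11284. The median log2 difference of the 9 was -0.20, and that of all genes tested was 0.03. The same median was -0.70 in pair 1, -0.04 in pair 2 and 0.02 in pair 3.

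**Figure D1:**
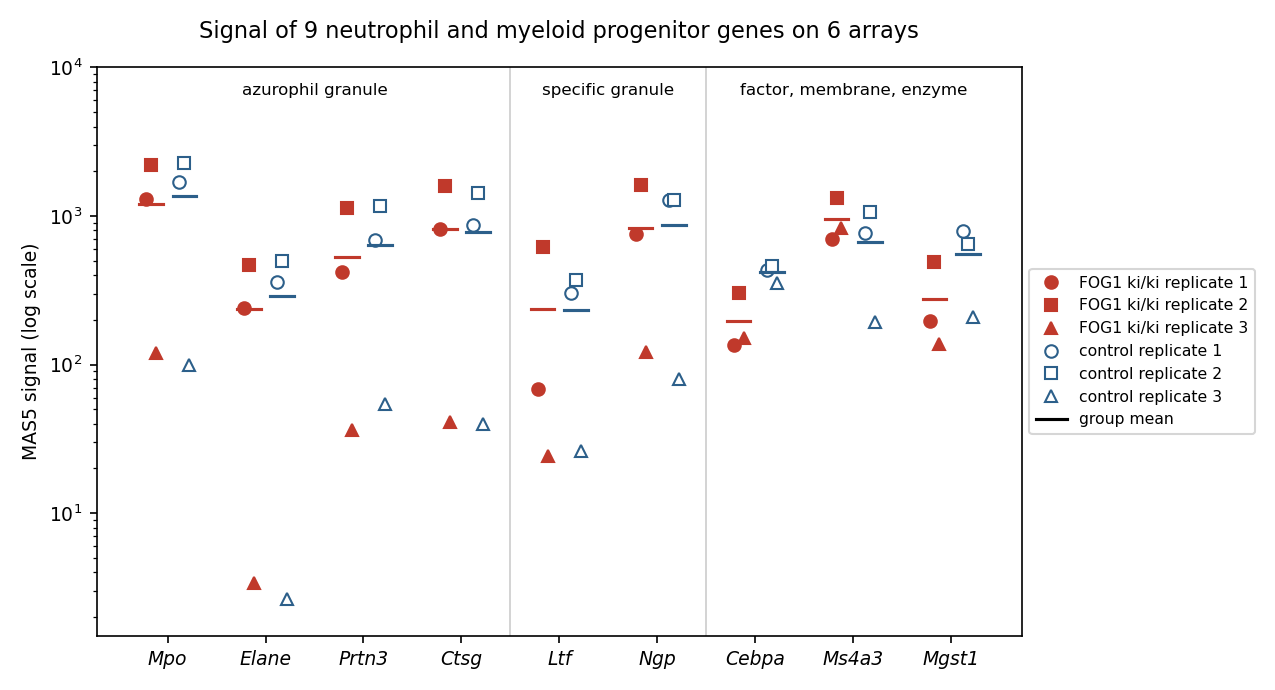
MAS5 signal on a log axis of the 9 genes on each of the 6 arrays, with FOG1 ki/ki (filled) left of control (open) and the marker shape giving the replicate number. Short bars are group means of 3 arrays. The 6 granule genes are lowest on both replicate 3 arrays, and Cebpa alone of the 9 has no overlap between the groups.

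Mpo encodes myeloperoxidase, the haem enzyme of azurophil granules that makes hypochlorous acid. Its signal was 1301.5, 2214 and 120.2 in FOG1 ki/ki replicates 1, 2 and 3, and 1694, 2271 and 99.5 in control replicates 1, 2 and 3. Each FOG1 ki/ki array lay close to the control of the same number, and the groups overlapped fully. The log2 difference was -0.06 (SE 1.33), with a 95% interval from -3.15 to 3.04 without the block and from -0.41 to 0.29 with it (limma adjusted p = 0.999, and 0.86 with the block).

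Elane encodes neutrophil elastase, a serine protease of the same granules, whose mutation in humans causes congenital neutropenia. It read 241, 466 and 3.40 in FOG1 ki/ki replicates 1, 2 and 3 and 362, 499.9 and 2.63 in control replicates 1, 2 and 3. On the replicate 3 arrays it lay below the median of the array, so it was dimmer there than most probe sets. It stood at the 42.8th and 35.8th percentile of all probe sets in FOG1 ki/ki and control. Its log2 difference was -0.20 (SE 1.51, adjusted p = 0.999), with a blocked 95% interval from -0.70 to 0.30.

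Prtn3 encodes proteinase 3, the autoantigen of a form of vasculitis in humans. Its signal was 417, 1132 and 36.1 in FOG1 ki/ki replicates 1, 2 and 3 and 685, 1171 and 54.1 in control replicates 1, 2 and 3. It was the only azurophil gene of the 4 that was lower in FOG1 ki/ki in all 3 pairs, by -0.70, -0.05 and -0.43 on the log2 scale. Over all genes 19.5% were lower in all 3 pairs, and of the 9 genes 3 were, Prtn3, Cebpa and Mgst1. The mean log2 difference of Prtn3 was -0.39 (SE 1.32, adjusted p = 0.999), with a blocked interval from -0.80 to 0.02.

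Ctsg encodes cathepsin G, a chymotrypsin-like protease of azurophil granules. It had 822, 1603 and 40.9 in FOG1 ki/ki replicates 1, 2 and 3, against 876, 1426.5 and 40.0 in control replicates 1, 2 and 3. The 3 pair differences were -0.09, 0.17 and 0.02, the narrowest spread among the 9 genes. The mean difference was 0.03 (SE 1.5, adjusted p = 0.999) and its blocked interval ran from -0.28 to 0.34.

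Seen by replicate number, the mean log2 value of the replicate 3 arrays minus that of the other 4 was -3.88 for Mpo, -4.37 for Elane, -3.73 for Prtn3 and -4.35 for Ctsg. Counted from the lowest of 11284 genes, these stood at rank 11, 4, 13 and 5. Ltf (-2.79) stood at rank 51 and Ngp (-3.39) at rank 20, while Mgst1 (-1.41), Ms4a3 (-1.17) and Cebpa (-0.36) stood at rank 381, 583 and 3037. A difference of -2 or lower was found for 6 of the 9 genes and for 1.19% of all genes. For the same 6 both replicate 3 arrays lay below the other 4 arrays, which held for 19.1% of all genes. The median signal of all probe sets was also lower on the replicate 3 arrays, at 5.93 in FOG1 ki/ki and 7.75 in control, against 10.3 to 12.3 on the other 4, and the replicate 3 control alone was FOG1+/+. The part of either in the low granule genes was not tested. The replicate number is not a comparison that the design asks for, and these differences were given no test. They cannot be told apart from anything else that differed between the replicate 3 cultures or arrays and the rest, and fewer granulocytic cells and less RNA per cell cannot be told apart in bulk samples.

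**Figure D2:**
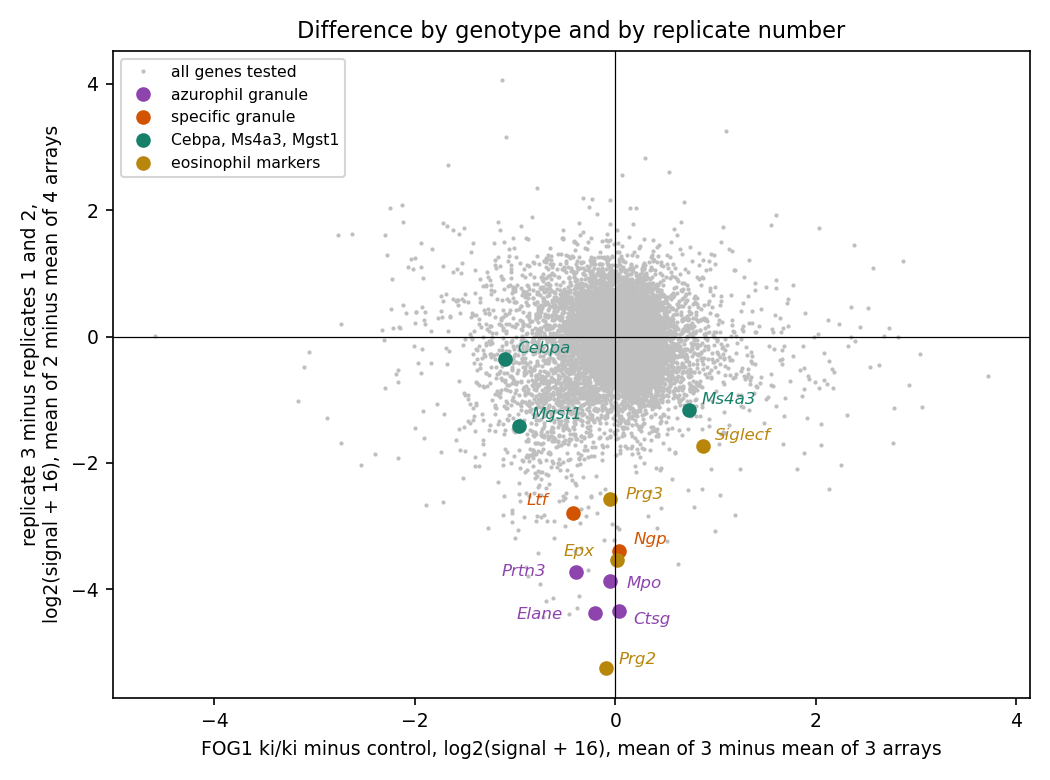
Each point is a gene, at its mean difference FOG1 ki/ki minus control (x axis) and replicate 3 minus replicates 1 and 2 (y axis), both on log2(signal + 16). The 4 azurophil genes lie between -4.37 and -3.73 on the y axis and between -0.39 and 0.03 on the x axis. The eosinophil marker Epx lies above them on the y axis, at -3.54, and the eosinophil marker Prg2 lies below them, at -5.26.

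Since the 4 azurophil genes moved together across the arrays and Ms4a3 did not follow them on FOG1 ki/ki replicate 3, their promoters are printed together. They are RefSeq windows of 300 bases around the transcription start, build GRCm38.p6, from 5′ to 3′ on the strand of the gene. Capitals mark 4 short motifs, searched on both strands. For C/EBP the letters were GCAAT. For PU.1 they were GAGGAA. For RUNX factors they were TGTGGT. For GATA factors they were GATAA.
Mpo, chr11:87793534-87793833, + strand: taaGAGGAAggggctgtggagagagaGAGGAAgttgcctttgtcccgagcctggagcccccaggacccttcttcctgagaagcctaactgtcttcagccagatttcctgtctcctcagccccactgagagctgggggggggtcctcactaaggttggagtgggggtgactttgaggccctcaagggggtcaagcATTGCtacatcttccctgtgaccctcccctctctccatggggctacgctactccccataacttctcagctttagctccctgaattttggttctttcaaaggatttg
Elane, chr10:79886062-79886361, + strand: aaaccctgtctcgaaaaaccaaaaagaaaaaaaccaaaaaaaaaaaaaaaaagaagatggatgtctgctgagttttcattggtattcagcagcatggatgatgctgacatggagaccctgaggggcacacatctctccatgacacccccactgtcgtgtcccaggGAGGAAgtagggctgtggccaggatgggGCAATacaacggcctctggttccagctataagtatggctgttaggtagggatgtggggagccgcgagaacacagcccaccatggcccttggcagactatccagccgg
Prtn3, chr10:79879417-79879716, + strand: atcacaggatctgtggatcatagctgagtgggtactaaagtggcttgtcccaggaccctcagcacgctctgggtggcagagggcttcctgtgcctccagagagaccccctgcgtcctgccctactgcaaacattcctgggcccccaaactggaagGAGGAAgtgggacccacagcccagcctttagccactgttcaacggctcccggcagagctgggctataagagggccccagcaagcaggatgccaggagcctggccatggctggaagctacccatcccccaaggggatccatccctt
Ctsg, chr14:56102525-56102824, - strand: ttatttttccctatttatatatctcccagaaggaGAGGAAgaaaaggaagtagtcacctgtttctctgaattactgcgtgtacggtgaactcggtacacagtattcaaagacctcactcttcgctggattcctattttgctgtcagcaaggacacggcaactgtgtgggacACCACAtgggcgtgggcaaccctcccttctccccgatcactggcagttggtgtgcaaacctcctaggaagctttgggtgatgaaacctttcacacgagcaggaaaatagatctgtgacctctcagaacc
Ms4a3, chr19:11640802-11641101, - strand: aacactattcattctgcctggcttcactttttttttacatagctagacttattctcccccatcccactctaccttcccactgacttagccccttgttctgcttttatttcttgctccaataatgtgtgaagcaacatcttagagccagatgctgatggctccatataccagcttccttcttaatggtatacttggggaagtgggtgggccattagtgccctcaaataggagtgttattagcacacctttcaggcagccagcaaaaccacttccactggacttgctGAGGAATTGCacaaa

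The PU.1 letters occur in all 5 windows and 2 times in that of Mpo. The C/EBP letters occur in those of Mpo, Elane and Ms4a3, and in the Ms4a3 window they share a base with the PU.1 letters. The RUNX letters occur in the Ctsg window, and the GATA letters in none of these 5. Windows were found for all 9 genes measured, with 2 for Mgst1. Of these 9 genes, 7 hold the PU.1 letters, 5 the C/EBP letters, 2 the RUNX letters and 1, Ltf, the GATA letters. A gene was counted if any of its windows held the letters, and Mgst1 holds the PU.1 letters in only 1 of its 2. The shares that follow are per window. Among all 32851 windows of this length the shares were 28.3% for PU.1, 26.4% for C/EBP, 16.8% for RUNX and 25.4% for GATA. A match is only a run of letters and says nothing of a factor bound there.

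Prtn3 and Elane are next to each other on chromosome 10. Of the genes around them, 3 could be tested, and these did not share the low replicate 3 values. Ptbp1, an RNA-binding splicing regulator, read between 649 and 896 on all 6 arrays, with a replicate 3 difference of -0.10. Med16, a Mediator subunit, differed by 0.18 and R3hdm4 by 0.32. Mpo shares a stretch of chromosome 11 with 2 other peroxidase genes. Epx, eosinophil peroxidase, 3 genes away, read 174, 220.4 and 4.15 in FOG1 ki/ki replicates 1, 2 and 3 and 205, 211 and 1.34 in control replicates 1, 2 and 3. Epx was thus low on both replicate 3 arrays like Mpo. Lpo, lactoperoxidase, which is next to Mpo, stayed under 1 on every array.

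Ltf encodes lactoferrin, the iron-binding protein of specific granules. It read 68.4, 620.5 and 24.1 in FOG1 ki/ki replicates 1, 2 and 3 and 305, 369 and 26.4 in control replicates 1, 2 and 3. The pair differences pointed both ways, at -1.93, 0.72 and -0.08, and the mean was -0.43 (SE 1.15, adjusted p = 0.999, blocked interval from -1.61 to 0.76). Ngp encodes neutrophilic granule protein, a cystatin-like protein of the same stage. It read 754.5, 1622 and 121 in FOG1 ki/ki replicates 1, 2 and 3 and 1273, 1274 and 80.3 in control replicates 1, 2 and 3. Its pair differences were -0.74, 0.35 and 0.51 and its mean 0.04 (SE 1.19, adjusted p = 0.999, blocked interval from -0.58 to 0.65). For both genes FOG1 ki/ki replicate 2 was the highest array and the replicate 3 arrays were the lowest.

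Cebpa, the factor that commits progenitors to the granulocyte and monocyte lineages, did not follow the granule genes. Its signal was 136, 302 and 151 in FOG1 ki/ki replicates 1, 2 and 3 and 430.4, 464.5 and 356 in control replicates 1, 2 and 3. All 3 FOG1 ki/ki arrays lay below all 3 controls, and the control of replicate 3 was close to the other controls. Of the 9 genes Cebpa alone had groups that did not overlap, a pattern that 4.94% of all genes showed in this direction. Its mean was 196 ± 91.9 in FOG1 ki/ki and 417 ± 55.7 in control (SD, n = 3 each). On the log2 scale this was -1.10 with an SE of 0.32 and did not pass (limma, adjusted p = 0.433). Within pairs Cebpa differed by -1.55, -0.59 and -1.15, and the 95% interval with the replicate block ran from -1.62 to -0.58 (adjusted p = 0.0757). The difference thus did not pass over all genes in either fit.

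Most monocyte and macrophage markers were lower in FOG1 ki/ki beside Cebpa, which monocytes also express. Of 13 tested, 12 lay below control, as did 5088 of all 11284 genes, and 0 passed the test. Their median was -0.74, with pair medians of -1.84, -0.42 and -0.34. Their summed signal was 2576, 8917 and 4828 in FOG1 ki/ki replicates 1, 2 and 3 and 8675, 11952 and 5876 in control replicates 1, 2 and 3. No marker of the 13 was at 0. Csf1r, the receptor that defines the lineage, read 349, 1880 and 1303 in FOG1 ki/ki and 1289, 2512 and 1267 in control, with overlap. Adgre1, Cd68 and Trem2, which mark macrophages, were lower in all 3 pairs without overlap, by -1.31, -1.26 and -1.27 in the mean (adjusted p from 0.483 to 0.84). Over all genes 19.5% were lower in all 3 pairs, and 4.94% were lower without overlap. Vcam1, the 1 marker above control, stood at 0.42, and Ccr2 at -0.01. The part of monocytes and macrophages in the Cebpa difference was not tested.

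Mgst1 encodes a microsomal glutathione transferase that is made in many tissues and marks early granulocytic progenitors among blood cells. Its brighter probe set read 198, 492 and 137 in FOG1 ki/ki replicates 1, 2 and 3 and 794, 653 and 209 in control replicates 1, 2 and 3. It was lower in FOG1 ki/ki in each pair, by -1.92, -0.40 and -0.55, and the groups overlapped because the replicate 3 control was low too. The mean difference was -0.96 (SE 0.59, adjusted p = 0.939), with a blocked interval from -1.71 to -0.21 (blocked adjusted p = 0.191). The second Mgst1 probe set read at most 4.10 on any array, at or under the 36.0th percentile, and gives no level.

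Ms4a3 encodes a four-pass membrane protein of granulocyte-monocyte progenitors and basophils. It read 696, 1332 and 828 in FOG1 ki/ki replicates 1, 2 and 3 and 764.5, 1060.1 and 195 in control replicates 1, 2 and 3. The pairs of replicates 1 and 2 differed by -0.13 and 0.32, and the replicate 3 pair by 2.003. While the azurophil genes were low on both replicate 3 arrays, Ms4a3 was low on the control array of that number and within the range of the others in FOG1 ki/ki. The mean difference was 0.73 (SE 0.57, adjusted p = 0.971), with a blocked interval from -0.22 to 1.68. Without the replicate 3 arrays the blocked difference was 0.10, and without control replicate 3 alone the difference was 0.02, so its size rested on that array.

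**Figure D3:**
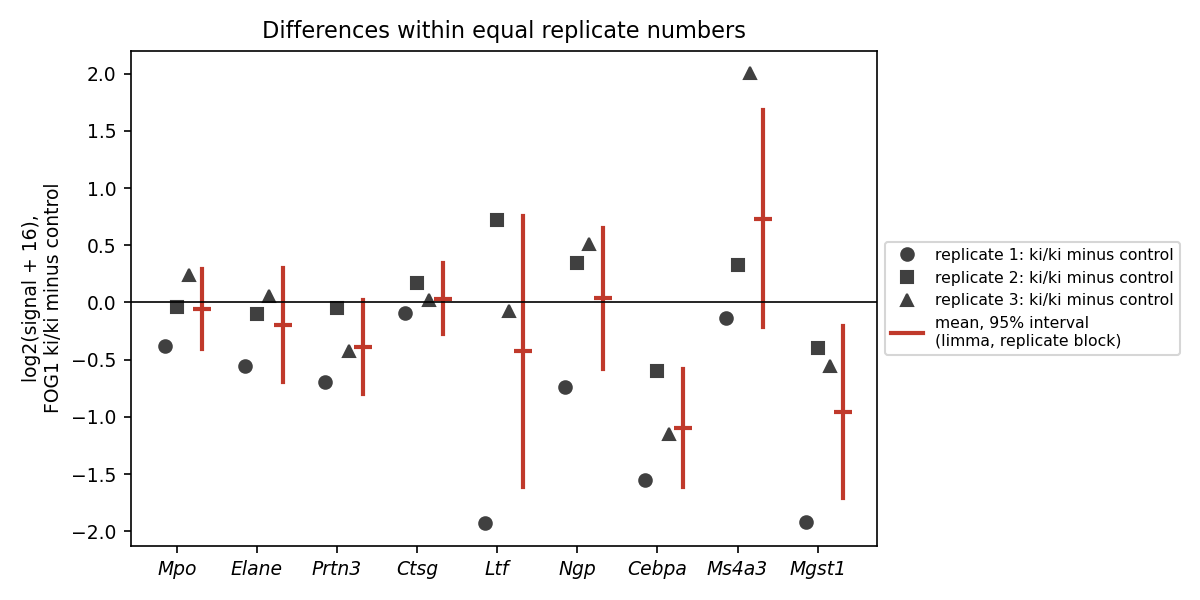
FOG1 ki/ki minus control on log2(signal + 16) within replicates 1, 2 and 3 for each of the 9 genes. Red lines are limma's 95% intervals with the replicate block, and only those of Cebpa and Mgst1 lie wholly below 0.

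Ms4a3 lies next to Ms4a2, which encodes the beta chain of the IgE receptor of mast cells and basophils. Ms4a2 read 704, 564 and 189 in FOG1 ki/ki replicates 1, 2 and 3 and 102, 62.9 and 13.3 in control replicates 1, 2 and 3, and with the block it rose (log2 difference 2.77, limma adjusted p = 0.00858, and 0.255 without the block). On its other side Oosp2 read at most 4.70 on any array. Of 8 Ms4a genes tested, 2 lay above control and 6 below, with a median of -0.54. With the block 1 passed, Ms4a2, against 0.425% of all genes called higher. Ms4a7, Ms4a6d and Ms4a6c, which macrophages express, had differences of -1.47, -0.87 and -0.87 (adjusted p from 0.849 to 0.945).

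The mast cell and basophil markers that could be tested were higher in FOG1 ki/ki beside Ms4a3. Of 12 with a probe set, 8 passed the filter on dim probe sets. All 8 lay above control, as did 6196 of all 11284 genes. With the block 1 of the 8 passed, Ms4a2, against 0.425% of all genes called higher. The markers had a median of 1.04, with pair medians of 1.03, 0.69 and 1.38. Their summed signal was 8047, 7525 and 6229 in FOG1 ki/ki replicates 1, 2 and 3 and 3914, 4105 and 724 in control replicates 1, 2 and 3. No marker of the 8 was at 0. Fcer1a, the ligand-binding chain of the IgE receptor, read 3317, 3696 and 3912 in FOG1 ki/ki replicates 1, 2 and 3 and 1891, 2168 and 93.1 in control replicates 1, 2 and 3. Its pair differences were 0.81, 0.77 and 5.17, so the large gap was that of control replicate 3. Gata2, a factor of mast cells and progenitors, differed by 0.97, 0.93 and 1.84 in the 3 pairs (adjusted p = 0.241, and 0.0572 with the block). Their part in the Ms4a3 difference was not tested.

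Granule genes were also read from lists of known members, by count, and these counts include the genes already described. Of 6 azurophil genes tested, Mpo, Elane, Prtn3 and Ctsg among them, 1, Ctsg, lay above control and 5 below. In either fit 0 passed, and the median was -0.17. Ctsc, cathepsin C, which activates the granule proteases, averaged 489 ± 188 in FOG1 ki/ki and 851 ± 394 in control (log2 difference -0.71, adjusted p = 0.939). Lyz2, lysozyme, which macrophages also make, read between 1939.9 and 3191 on all 6 arrays and had a replicate 3 difference of only 0.04.

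Of 9 specific granule genes, Ltf and Ngp among them, 2 lay above control and 7 below, and 0 passed in either fit. Their median was -0.27, with pair medians of -1.52, 0.35 and 0.0017. The replicate 3 difference was -2 or lower for 7 of the 9, Ltf and Ngp included, with a median of -2.79. Camp, the cathelicidin precursor, read 13.5 in FOG1 ki/ki replicate 3 and 16.8 in control replicate 3, and between 254.5 and 960.0 on the other arrays. Chil3, a chitinase-like protein that alveolar macrophages make too, read 361 in FOG1 ki/ki replicate 3 and 61.2 in control replicate 3, with a replicate 3 difference of -3.24. Mmp8, neutrophil collagenase, stood at -0.99 and Cd177, a neutrophil surface protein, at -2.59 by the same measure.

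Of 8 genes of late neutrophils, 1 lay above control and 7 below, with a median of -0.39 and 0 passing in either fit. The calprotectin subunits S100a8 and S100a9, which monocytes also express, stayed bright on all 6 arrays. S100a8 read 2389.5, 3834 and 1514 in FOG1 ki/ki replicates 1, 2 and 3 and 3319, 4044 and 1059 in control replicates 1, 2 and 3. Mmp9, gelatinase B, read 121, 403 and 59.2 in FOG1 ki/ki and 508, 482 and 31.5 in control. The chemokine receptor Cxcr2, which marks mature cells, was dim, at no more than 54.6 on any array. Csf3r, the receptor of granulocyte colony-stimulating factor, which is also among the progenitor receptors counted below, read at most 73.4. Ltb4r1, a leukotriene receptor, read between 29.9 and 64.6 (log2 difference -0.40, adjusted p = 0.959).

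The phagocyte oxidase subunits were split. Of 5 tested, 2 lay above control and 3 below, with a median of -0.0050 and 0 passing. Cybb, the membrane catalytic subunit, read 78.5, 386 and 44.2 in FOG1 ki/ki replicates 1, 2 and 3 and 560.2, 626 and 98.0 in control replicates 1, 2 and 3 (log2 difference -1.40, adjusted p = 0.939, and 0.149 with the block). Its cytosolic partners Ncf1 and Ncf4 differed by 0.18 and -0.0050. Cyba, the smaller membrane subunit, differed by -0.06, and the GTPase Rac2 by 0.25 (adjusted p = 0.859) with no overlap.

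Among myeloid transcription factors, 5 of 12 lay above control and 7 below, with a median of -0.09 and 0 passing in either fit. Cebpb and Cebpd, the C/EBP factors of stress and late granulopoiesis, differed by -0.10 (SE 0.31) and -0.20 (SE 0.60). The pair differences of Cebpd were -0.92, -0.55 and 0.87, and whether either gene differed from Cebpa in its response was not tested. All 5 C/EBP family genes tested lay below control in the mean, as did 5088 of all 11284 genes. Their median was -0.20, but the pair medians were -0.01, -0.55 and 0.04. Ddit3, a stress-induced member, stood at -0.31. Spi1, which encodes PU.1, had 174, 258 and 156 in FOG1 ki/ki replicates 1, 2 and 3 and 158, 243 and 52.3 in control replicates 1, 2 and 3. Gfi1, a repressor needed for neutrophil formation, was dim and low on both replicate 3 arrays, at 2.51 in FOG1 ki/ki and 1.52 in control. Its relative Gfi1b, a factor of megakaryocytes and red cells, read between 960.0 and 1214 on all 6. Id2, an inhibitor of helix-loop-helix factors, averaged 1281 ± 309 in FOG1 ki/ki and 775 ± 321 in control (log2 difference 0.78, adjusted p = 0.732). Myb, a factor of immature progenitors, differed by 0.53 (adjusted p = 0.977).

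Receptors of granulocyte-monocyte progenitors were mixed, with 4 of 11 above control, 7 below, a median of -0.39 and 0 passing in either fit. Fcgr2b, an inhibitory IgG receptor, read 1859.6, 1491 and 2267 in FOG1 ki/ki replicates 1, 2 and 3 and 1305, 1288 and 585 in control replicates 1, 2 and 3 (log2 difference 0.88, adjusted p = 0.606). Cd34, a sialomucin of progenitors, read 1694, 1341 and 719.8 in FOG1 ki/ki and 1819, 2262.5 and 1731 in control (log2 difference -0.70, adjusted p = 0.732). Csf2rb and Csf2rb2, signalling chains of the receptors for interleukins and granulocyte-macrophage colony-stimulating factor, differed by 0.23 and 0.68. The family of Mgst1 was split: of 6 genes tested, Mgst1 included, 3 lay above control and 3 below. Mgst2 differed by 0.31 and Mgst3 by 0.42. Ltc4s and Ptges, which make a leukotriene and a prostaglandin, stood at 0.44 and -0.48.

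Ctsg belongs to a row of protease genes on chromosome 14 that mast cells and cytotoxic lymphocytes use. Of 13 with a probe set, 8 passed the filter on dim probe sets. All 8 lay above control in the mean, Ctsg least of all, as did 6196 of all 11284 genes. Their median was 1.18, with 0 passing in either fit. The pair medians were 0.13, 0.49 and 2.85, so the large gap was in the replicate 3 pair. Gzmb, granzyme B, read 509.6, 923 and 1785 in FOG1 ki/ki replicates 1, 2 and 3 and 327, 189 and 5.96 in control replicates 1, 2 and 3 (log2 difference 3.06, adjusted p = 0.483). The mast cell proteases Mcpt1, Mcpt2 and Cma1 differed by 1.36, 1.19 and 0.86 (adjusted p from 0.716 to 0.922). Mcpt8, a basophil protease next to Ctsg, read 1206, 446 and 99.4 in FOG1 ki/ki and 555, 336 and 24.9 in control. Thus Mcpt8 was low on both replicate 3 arrays, with a difference of -3.08 between replicate numbers, and Gzmb was highest on 1 of them.

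Of 4 natural inhibitors of the granule proteases tested, 1 passed, Slpi, and only with the block. Ms4a2 was the only other gene of the pathway and family lists to pass, also only with the block. In that fit 0.425% of all genes were called higher and 0.434% lower. Slpi, the secretory leukocyte protease inhibitor that blocks elastase and cathepsin G, read 292, 349.7 and 31.6 in FOG1 ki/ki replicates 1, 2 and 3 and 1145, 1565 and 553 in control replicates 1, 2 and 3. Every FOG1 ki/ki array lay below every control, with pair differences of -1.91, -2.11 and -3.58. With the block Slpi fell (log2 difference -2.54, limma adjusted p = 0.0388), and without the block it did not pass (adjusted p = 0.446).

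The other inhibitors differed less. Serpinb6a, a serpin that can block cathepsin G, averaged 864 ± 47.2 in FOG1 ki/ki and 1352 ± 258 in control (log2 difference -0.62, adjusted p = 0.407, and 0.076 with the block). Serpinb1a, an inhibitor of elastase, cathepsin G and proteinase 3, read 1912, 1072 and 1481 in FOG1 ki/ki and 1351, 801 and 408 in control (log2 difference 0.91, adjusted p = 0.799). Cst7, cystatin F, an inhibitor of cathepsin C, differed by 0.02. Of the 4 tested, 2 lay above control and 2 below.

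**Figure D4:**
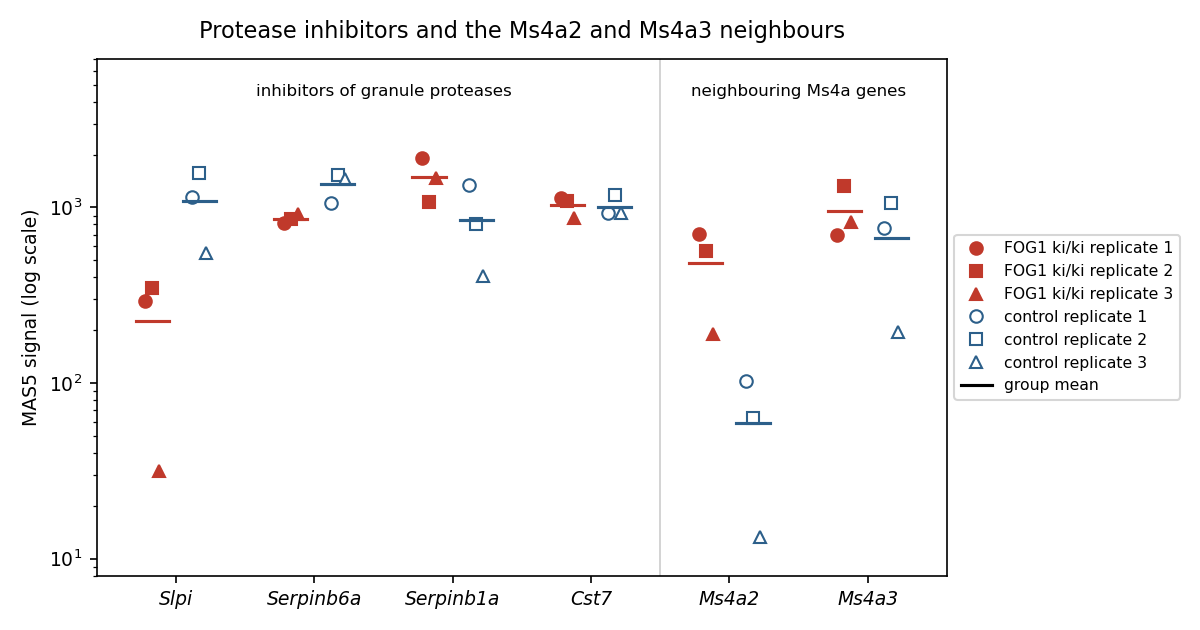
MAS5 signal on a log axis of 4 protease inhibitors and of the neighbours Ms4a2 and Ms4a3, with FOG1 ki/ki (filled) left of control (open), marker shapes for replicate numbers and bars for group means of 3 arrays. Slpi and Serpinb6a are lower in FOG1 ki/ki on every array and Ms4a2 is higher, while the groups of Ms4a3 overlap.

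Eosinophil markers shared the replicate pattern. The summed signal of the 4 tested, among them Prg2, the major basic protein, was 1448, 2086 and 109.8 in FOG1 ki/ki replicates 1, 2 and 3 and 2218, 1696 and 39.8 in control replicates 1, 2 and 3. Their median replicate 3 difference was -3.06, and Prg2 had the lowest of all genes tested, at -5.26. The part of eosinophils in the granule gene pattern was not tested. Proliferation markers had a median replicate 3 difference of -0.52 and megakaryocyte markers one of 0.26. The summed signal of 10 megakaryocyte markers was 17258, 19233 and 23222 in FOG1 ki/ki replicates 1, 2 and 3 and 19609.6, 25745 and 25589.9 in control replicates 1, 2 and 3. All 10 lay below control, as did 5088 of all 11284 genes, with a median of -0.20 and Pf4 at -0.0028. With the block 1 fell, Gp6, a platelet collagen receptor (log2 difference -1.35, limma adjusted p = 0.0332, and 0.356 without the block). In that fit 0.434% of all genes were called lower. The summed megakaryocyte signal of each replicate 3 array was thus within or above the range of the other 2 arrays of its group. Single markers could differ: Tubb1, a tubulin of platelets, read 902 in FOG1 ki/ki replicate 3, below the 1334 and 1318 of replicates 1 and 2.

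The genes most like the 4 azurophil genes over the 6 arrays, by Pearson's r with their mean centred log2 profile, were Hyls1, Fcnb, C3ar1, Tmem42, Lbp, Satb1, BC035044 and Fam107b. Their r lay between 0.992 and 0.997, and since the replicate 3 arrays stand apart it serves only to order genes. Fcnb, a ficolin of granulocytic cells, read 0.393 in FOG1 ki/ki replicate 3 and 2.62 in control replicate 3, and between 72.6 and 162 on the other arrays. C3ar1, the receptor of complement fragment C3a, had a replicate 3 difference of -2.21. The genes most like Ltf and Ngp were Tm9sf2, G0s2, Ifitm6, Lfng, Erlin1, Pglyrp1, Idh3b and Lbp, with r between 0.991 and 0.997. Pglyrp1, a peptidoglycan recognition protein of neutrophil granules, read 219, 604 and 53.3 in FOG1 ki/ki and 486, 472 and 28.7 in control.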

How the data were processed

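Megakaryocyte RNA, amplified and labelled with NuGEN kits per the labels' protocols, was measured on 6 arrays. The intensities deposited by the authors were MAS5 signals, per the submitters' processing notes, which give no version. Trimmed means of 150 on every array show a scaling to one target. Scaled signals cannot show a change of total RNA per cell, detection calls were not used here, and the number of arrays limits the precision.

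Probe sets were named through the platform annotation, and 34958 of 45101 had 1 gene symbol. Control probe sets and those in the lower 50% by mean signal were left out. The brightest probe set that names only that gene stood for it, and log2(signal + 16) was tested with limma 3.58.1 in R 4.3.3 (lmFit, eBayes with a trend, two-sided, Benjamini-Hochberg over 11284 genes, threshold 0.05). A second fit over all probe sets without the filter called 0 of the 10 probe sets, with or without the block. Both groups have replicates 1 to 3. Deviations from group means of same-numbered arrays correlated at 0.482, 0.687 and 0.673 across genes, and were read as pairing before calls were compared, with the labels naming no shared litter. The fit without the block stayed the main one. It was tested on simulated data. Figures were drawn with matplotlib 3.10.9.

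The genes, lists and tests were chosen with earlier results of these data known. All 10 genes are named. From each pathway and family list the 4 genes with the smallest unadjusted p and any passing gene were named. The other genes named, cell type markers included, were chosen after their values were seen. The 8 genes most like each profile were taken by Pearson's r.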

Additional observations from a re-analysis of the deposited data

How the results depend on the processing

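Under all 21 alternatives the count of the 9 genes passing the test stayed at 0, and the differences of Cebpa, Mgst1 and Ms4a3 kept their sign. The lowest adjusted p of Cebpa was 0.0614, with the replicate block and without replicate 2. The sign of the granule genes depended on the arrays used, but for Elane and Prtn3 only where single arrays were left out. Without replicate pair 1, 2 and 3 Elane stood at -0.02, -0.25 and -0.33. Prtn3 stood at -0.24, -0.56 and -0.37. Leaving out a single array makes the groups unequal in replicate numbers. Leaving out 1 array or 1 pair gave -1.42 to 1.16 for Mpo, -1.72 to 1.19 for Elane, -1.62 to 0.86 for Prtn3, -1.41 to 1.48 for Ctsg, -1.58 to 0.42 for Ltf and -1.21 to 1.05 for Ngp. The median of the 9 then ranged from -1.42 (without control replicate 3) to 0.86 (without FOG1 ki/ki replicate 3), and with the other settings from -0.20 to -0.14. The range for Cebpa was -1.43 to -0.87, for Mgst1 -1.53 to -0.48 and for Ms4a3 0.02 to 1.20. With a pseudocount of 64 Ngp was at -0.0048. The replicate block with 1 pair left out was added after the data were seen. It gave Mpo 0.10 and Ltf 0.32 without replicate 1, Ctsg -0.0331 and Ngp -0.12 without replicate 2, and Ngp -0.20 without replicate 3. Over all genes, 11 were called higher and 6 lower. Higher and lower calls were 5 and 3 with a pseudocount of 1, 0 and 1 with no filter, 1 and 3 with the lower 75% left out, and 9 and 3 with the mean of all probe sets. They were 48 and 49 with the replicate block, and 94 and 135, 65 and 65, and 114 and 225 with the block and without pair 1, 2 and 3. Without 1 array or 1 pair and no block they were 0 to 1 and 0 to 1. The cause was not tested. Signals near background limit the low values of Elane on the replicate 3 arrays. The replicate block changed no call of the 9 genes.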

Other observations

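Beside Ltf on chromosome 9 lies Lrrc2, a leucine-rich repeat gene 2 genes away, which was chosen after its values were seen. It read 273, 178 and 166 in FOG1 ki/ki replicates 1, 2 and 3 and 69.0, 32.9 and 11.1 in control replicates 1, 2 and 3. With the replicate block it rose (log2 difference 2.17, limma adjusted p = 0.0314), and without the block it did not pass (adjusted p = 0.224). Of the other neighbours of the 9 genes within 3 steps, only Ms4a2 passed with the block, and none passed without it. Rtp3, which lies between Lrrc2 and Ltf, read at most 4.80 on any array.

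Slc7a8, an amino acid transporter next to Cebpe, read 226, 277 and 281 in FOG1 ki/ki replicates 1, 2 and 3 and 89.9, 191 and 82.7 in control replicates 1, 2 and 3 (log2 difference 1.09, adjusted p = 0.466, and 0.0998 with the block). Tspoap1, next to Mpo, ran against Mpo over the replicate numbers. It read 535 in FOG1 ki/ki replicate 3 and 771 in control replicate 3, and between 14.6 and 167 on the other 4 arrays.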
